A study of Mus musculus with 9 samples.

Results

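The interferon-inducible GTPases were examined as 9 genes, chosen as a list of mouse symbols and split by family: the guanylate-binding protein (GBP) genes Gbp2, Gbp3, Gbp5, Gbp7 and Gbp9, and the immunity-related GTPase (IRG) genes Irgm1, Irgm2, Igtp and Iigp1. All 9 were found among the 47731 genes of the RNA count table, and all 9 were among the 14851 genes that passed the filter on low counts and were tested. RNA came from macrophages of 2 Tet2 knockout (Tet2 KO) and 3 wild-type (WT) libraries, and 5-hydroxymethylcytosine (5hmC), the base that TET enzymes make from 5-methylcytosine, from 2 Tet2 KO and 2 WT libraries. All cells were treated with M-CSF, the cytokine that keeps macrophages alive and growing, and were at passage 0. The sources used here do not give the knockout allele, the age and strain of the mice, or any pooling of animals. Because the labels do not tie a library to its own animal or culture, p-values here rest on the spread between libraries, and its source (animals, cultures or handling) is not known.

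GBPs and IRGs are GTPases that interferons induce strongly in macrophages and other cells. They gather on vacuoles that hold intracellular parasites and bacteria and help to disrupt them, and GBPs also act on bacteria in the cytosol and promote inflammasome activation. Interferon signalling runs from receptors through JAK kinases to transcription factors that bind gamma-activated sites (GAS) and interferon-stimulated response elements (ISRE), and IRF family members bind sequences related to the ISRE.

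RNA libraries held 16053426 and 25479447 counts in Tet2 KO, against 17569441, 51355576 and 56394358 counts in WT. Counts of Tet2 over the whole gene were not lower in the libraries labelled Tet2 KO (228 and 123 normalised CPM, against 104, 136 and 39.2 in WT), and a knock-in feature of the count table had 1452 and 2245 counts in the libraries labelled Tet2 KO and 0 in all 3 WT libraries. Normalised CPM are counts per 1000000 of the library size scaled by the TMM method. All 8 macrophage markers, among them Cd68, Adgre1, Csf1r and Lyz2, were detected in every library, with summed levels of 17580 and 19890 normalised CPM in Tet2 KO, against 21820, 14470 and 12460 in WT (4 fitted higher and 4 lower). The sum was mostly Lyz2 and Adgre1, and single markers differed in both directions. Adgre1 had 7100 and 5726 in Tet2 KO, against 1588, 2912 and 759 in WT. Cd68 had 209.4 and 358.9 in Tet2 KO, against 1546, 633.2 and 662.5 in WT. Without overlap, 4 of the 8 lay above WT and 2 below, against 17.2% and 19.0% of all tested genes. WT replicate 3 stood apart by stromal and osteoblast transcripts: the 8 listed markers summed to 4808 normalised CPM in it, against 13.7 and 12.6 in the Tet2 KO libraries and 8.34 and 6.63 in the other 2 WT libraries. WT replicate 1 stood apart by the members themselves, as described below, and results are therefore also given without it.

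Most of the genes lie in groups on the mouse genome (GRCm38). Gbp5, Gbp7, Gbp3 and Gbp2 lie in this order on chromosome 3 between 142496934 and 142638008, with Gbp2b between Gbp3 and Gbp2. Gbp9 lies on chromosome 5 between 105076464 and 105110357, with Gbp8 on one side and Gbp4 5.41 kb away on the other. Irgm1 (chr11:48865245-48871420) lies near the related genes Tgtp1, Tgtp2 and Ifi47, whereas Igtp (chr11:58199556-58207592) and Irgm2 (chr11:58214977-58222783) lie only 7.38 kb apart, next to Gm12250.

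Promoter entries of RefSeq (GRCm38.p6) matched 7 of the 9 members, all except Gbp9 and Iigp1, and their 200 bases upstream of the outermost annotated start are shown because the members' fitted levels all lay on the same side of WT. Capitals mark matches to an ISRE core, spelled GAAA, any 2 bases and GAAA on either strand, and to a GAS, spelled TTCNNNGAA, which reads alike on both strands. On the opposite strand the ISRE core reads as TTTC, any 2 bases and TTTC.
Gbp2 (chr3:142620463-142620662, plus strand): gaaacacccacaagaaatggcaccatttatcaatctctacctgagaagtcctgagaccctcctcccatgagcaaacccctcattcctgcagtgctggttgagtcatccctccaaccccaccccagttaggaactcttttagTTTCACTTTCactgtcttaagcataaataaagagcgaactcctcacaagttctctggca
Gbp3 (chr3:142559816-142560015, plus strand): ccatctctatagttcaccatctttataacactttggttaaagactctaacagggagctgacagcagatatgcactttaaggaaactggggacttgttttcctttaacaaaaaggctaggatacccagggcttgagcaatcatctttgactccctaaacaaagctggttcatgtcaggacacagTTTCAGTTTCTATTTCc
Gbp5 (chr3:142496734-142496933, plus strand): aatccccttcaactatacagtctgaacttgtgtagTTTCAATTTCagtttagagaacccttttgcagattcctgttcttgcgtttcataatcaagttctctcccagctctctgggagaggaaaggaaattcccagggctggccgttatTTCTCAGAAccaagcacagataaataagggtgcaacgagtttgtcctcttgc
Gbp7 (chr3:142530136-142530335, plus strand): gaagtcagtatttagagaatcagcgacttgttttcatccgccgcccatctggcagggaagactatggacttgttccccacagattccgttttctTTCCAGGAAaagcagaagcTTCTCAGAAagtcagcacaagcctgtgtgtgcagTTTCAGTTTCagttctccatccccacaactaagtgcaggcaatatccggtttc
Irgm1 (chr11:48871421-48871620, minus strand): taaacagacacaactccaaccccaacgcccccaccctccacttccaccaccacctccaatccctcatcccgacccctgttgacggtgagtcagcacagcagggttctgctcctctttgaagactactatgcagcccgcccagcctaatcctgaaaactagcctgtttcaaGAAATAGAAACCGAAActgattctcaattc
Irgm2 (chr11:58214777-58214976, plus strand): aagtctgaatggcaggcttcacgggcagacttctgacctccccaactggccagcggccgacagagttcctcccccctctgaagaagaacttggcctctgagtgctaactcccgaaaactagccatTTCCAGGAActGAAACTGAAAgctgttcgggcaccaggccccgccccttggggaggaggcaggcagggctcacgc
Igtp (chr11:58199356-58199555, plus strand): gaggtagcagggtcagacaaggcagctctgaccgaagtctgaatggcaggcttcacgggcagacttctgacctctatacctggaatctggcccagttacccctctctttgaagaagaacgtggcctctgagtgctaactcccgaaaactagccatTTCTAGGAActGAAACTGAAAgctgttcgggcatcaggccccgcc

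Each of the 7 genes had an ISRE core within 250 bases upstream of the start in a promoter entry. Over all genes, 978 of 32851 promoter entries held it (2.98%). Gbp3 has 2 entries, of which only the entry shown held the core, whereas the shares over all promoters count single entries. The GAS spelling was present in 4 of the 7, in Gbp5, Gbp7, Irgm2 and Igtp, against 2306 of 32851 promoters (7.02%). Both were present in those same 4, against 109 of 32851 (0.332%). Among the other listed GBP and IRG genes with a promoter entry, 4 of 5 held the ISRE core and 3 of 5 the GAS spelling.

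The matches lay close to the start in most members, with distances counted from the start of transcription in the promoter entry. In Gbp2 the ISRE core ran 59 to 50 bases upstream, and in Gbp3 a pair of overlapping cores ran 45 to 30 bases upstream. For Gbp3 that start lies downstream of the outermost annotated start, so the same pair lies nearer to the end of the bases shown. Irgm1 likewise held a pair of overlapping cores, 30 to 15 bases upstream. In Igtp and Irgm2 a GAS was followed, 2 bases on, by an ISRE core, at 45 to 25 bases upstream of Igtp and 75 to 55 bases upstream of Irgm2, and these neighbouring genes had the most similar pair of promoters, with 197 identical bases in 286 aligned columns (68.9%, against 47.6% to 55.4% for the other pairs). Gbp7 held 2 GAS matches upstream of its ISRE core, and Gbp5 held its core farther out, at 165 to 156 bases, with a GAS at 52 to 44 bases and another at 245 to 237 bases, beyond the bases shown. A match is a stretch of letters, and binding of a factor was not measured.

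**Figure D1:**
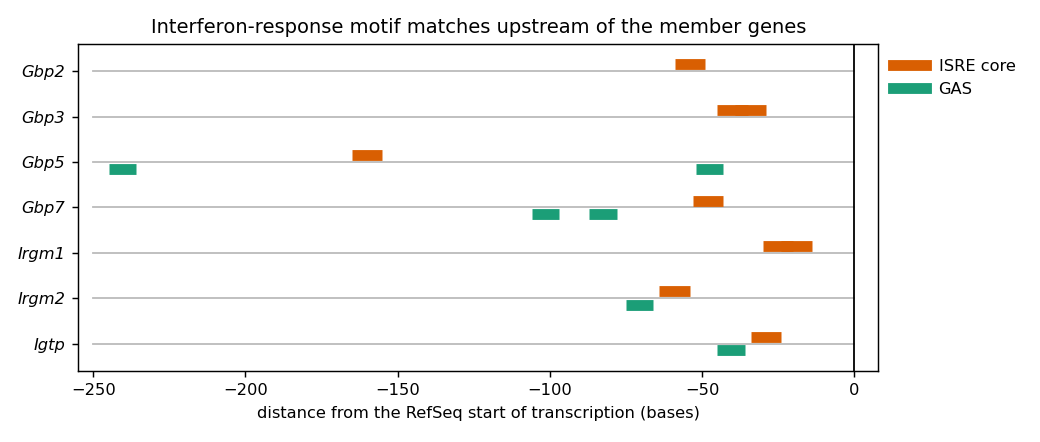
Positions of ISRE core (orange) and GAS (green) matches in the 250 bases upstream of the start in the RefSeq promoter entry of 7 member genes. The x axis gives the distance from that start in bases, with 1 line per gene. For Gbp3 that start lies downstream of the outermost annotated start. All 7 lines carry an ISRE core, and Gbp5, Gbp7, Irgm2 and Igtp also carry a GAS.

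In RNA, the fitted level of all 9 GTPase genes was higher in Tet2 KO than in WT macrophages, by 0.49 to 1.91 on the log2 scale, while 48.4% of all tested genes were fitted higher. None of the 9 passed edgeR's quasi-likelihood test at an adjusted p of 0.05, a threshold that only 2 of 14851 genes passed as higher (0.0135%) and 0 as lower. In simulated counts of the same group sizes, 8% of genes changed 4-fold and 0% of those changed 2-fold were recovered. The simulated 4-fold changes were all decreases in Tet2 KO and the 2-fold changes all increases. The simulation gave every gene the same spread and held no outlying library, so these shares do not measure the power for the members. At an unadjusted p under 0.05, 4 of the 9 were higher, against 5.95% of all tested genes, and DESeq2's Wald test called 3 of the 9 (Gbp5, Irgm1 and Igtp), against 3.37% of all genes. Both Tet2 KO libraries lay above all 3 WT libraries for 7 of the 9, against 17.2% of all tested genes. The members are not independent of one another, since they share libraries, neighbours and regulators, so these counts describe the list and carry no p of their own. In bulk RNA, fewer cells expressing a gene and less RNA per cell cannot be told apart.

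**Figure D2:**
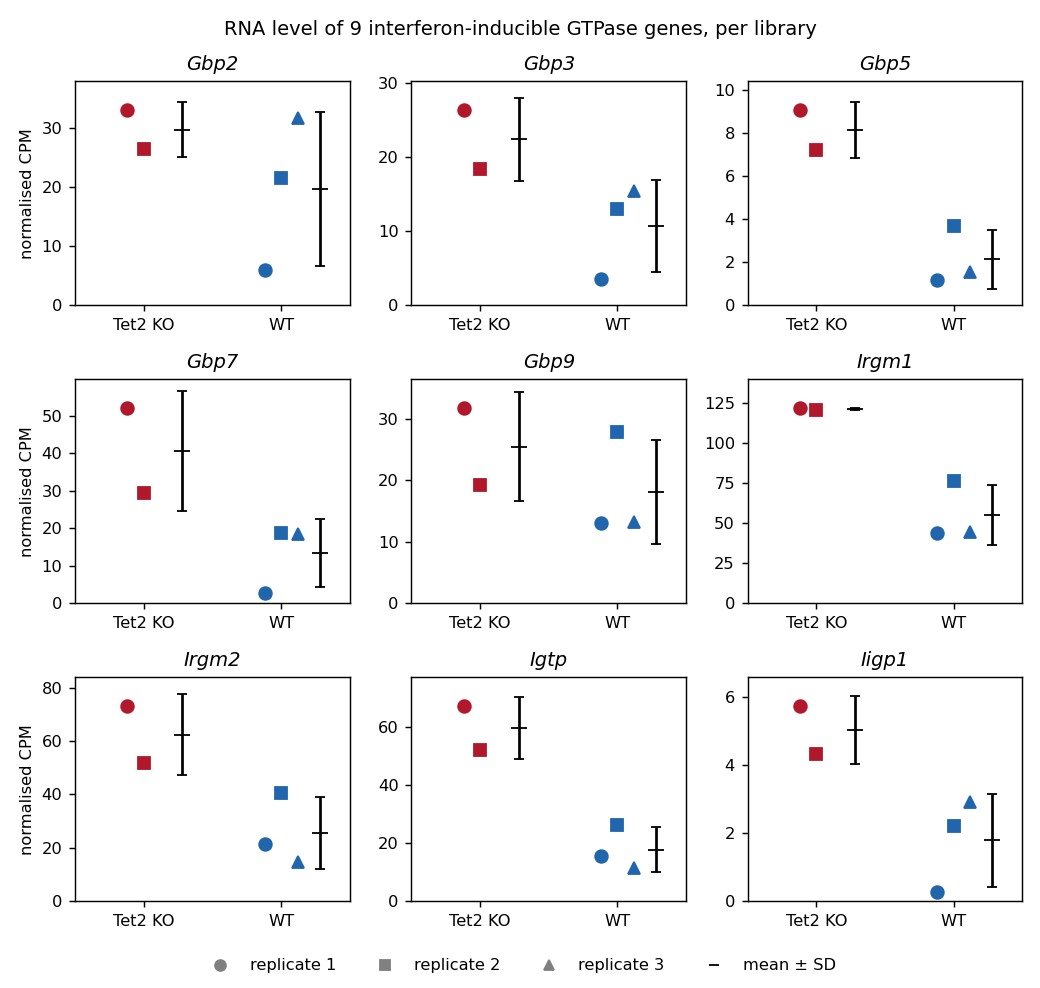
Normalised CPM (y axis, from 0) of each of the 9 GTPase genes in the 2 Tet2 KO libraries (red, left) and the 3 WT libraries (blue, right), with marker shape giving the replicate number and black bars the mean ± SD. Both Tet2 KO points lie above every WT point except in Gbp2 and Gbp9, and the circle of WT replicate 1 is the lowest point for all 5 GBP genes, Irgm1 and Iigp1.

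Among the GBP genes, Gbp5, which promotes inflammasome assembly in macrophages, had the largest fitted difference. It was at 9.04 and 7.20 normalised CPM in Tet2 KO, against 1.16, 3.69 and 1.56 in WT. The groups did not overlap, and the lower Tet2 KO library was 1.95 times the highest WT library. The log2 difference was 1.91 ± 0.59 (SE), with an edgeR adjusted p of 0.274 and a DESeq2 adjusted p of 0.0381.

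Gbp7, which in mouse macrophages supports the assembly of the NADPH oxidase on vacuoles, had 52.0 and 29.4 normalised CPM in Tet2 KO, against 2.87, 18.7 and 18.6 in WT. WT replicates 2 and 3 were nearly level with each other and replicate 1 was 6.51 times below replicate 2, while the Tet2 KO libraries were themselves 1.77-fold apart. The log2 difference was 1.60 ± 0.78 (edgeR adjusted p = 0.430).

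Gbp3, the neighbour of Gbp7, had 26.3 and 18.4 normalised CPM in Tet2 KO, against 3.62, 13.0 and 15.5 in WT. The groups did not overlap, although the lower Tet2 KO library was only 1.19 times the highest WT library (log2 1.06 ± 0.62, edgeR adjusted p = 0.501).

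Gbp2, a GBP that coats Toxoplasma vacuoles in mouse cells, had 33.0 and 26.5 normalised CPM in Tet2 KO, against 5.95, 21.5 and 31.7 in WT. WT replicate 3 lay between the Tet2 KO libraries, so the groups overlapped (log2 0.59 ± 0.66, edgeR adjusted p = 0.717).

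Gbp9, which lies in the other GBP cluster, also overlapped, with 31.7 and 19.3 normalised CPM in Tet2 KO, against 13.1, 27.9 and 13.3 in WT. Here WT replicate 2 was the high WT library, and the log2 difference of 0.49 ± 0.45 (edgeR adjusted p = 0.655) was the smallest of the 9.

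Among the IRG genes, both Tet2 KO libraries lay above all WT libraries in 4 of 4, against 17.2% of all tested genes. Igtp, a regulatory IRG protein also known as IRGM3, had 67.0 and 52.2 normalised CPM in Tet2 KO, against 15.5, 26.3 and 11.5 in WT. The lower Tet2 KO library was 1.98 times the highest WT library, the widest gap among the members. Its log2 difference of 1.74 ± 0.39 had the lowest edgeR adjusted p of the 9, 0.208, and a DESeq2 adjusted p of 0.00363.

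Irgm1, the regulatory IRG protein that mice need to control mycobacteria, was nearly equal in both Tet2 KO libraries, at 121.8 and 121.0 normalised CPM, against 43.9, 76.7 and 44.4 in WT. WT replicates 1 and 3 were level and replicate 2 stood higher. The log2 difference was 1.14 ± 0.31 (edgeR adjusted p = 0.238, DESeq2 adjusted p = 0.0278).

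Irgm2, the third regulatory IRG protein, had 73.0 and 51.8 normalised CPM in Tet2 KO, against 21.5, 40.5 and 14.6 in WT. WT replicate 2 was again the highest of the WT libraries, and the log2 difference was 1.29 ± 0.46 (edgeR adjusted p = 0.321).

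Iigp1, an effector IRG protein that loads onto the vacuole membrane itself, was low in all libraries, at 5.74 and 4.34 normalised CPM in Tet2 KO, against 0.274, 2.21 and 2.91 in WT. The lowest of these, in WT replicate 1, rests on 4 counts. This gene lies apart from the other members, on chromosome 18, with the related genes Gm4951 and F830016B08Rik. The log2 difference was 1.46 ± 0.89 (edgeR adjusted p = 0.517).

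Averaged within each family after centring each gene over the 5 libraries, the GBP genes lay at 1.08 and 0.54 on the log2 scale in Tet2 KO, against -1.65, 0.16 and -0.14 in WT. The IRG genes lay at 1.12 and 0.80 in Tet2 KO, against -1.27, 0.06 and -0.71 in WT. Both families were thus lowest in WT replicate 1 and highest in Tet2 KO replicate 1, and they parted in WT replicate 3, where the IRG genes were the lower family. Single genes did not all follow their own family. The profile of Gbp5 lay closer to the IRG mean (root mean square distance 0.28) than to the GBP mean (0.53), Gbp9 was about equally far from both (0.56 and 0.62), and Iigp1 lay closer to the GBP mean (0.64) than to the IRG mean (0.87), although each gene counts in its own family's mean.

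WT replicate 1 was the lowest of the 5 libraries for 7 of the 9 members, against 24.7% of all tested genes, and Tet2 KO replicate 1 was the highest for 9 of 9, against 25.7%. The median log2 difference of the GBP genes was 1.06 with all libraries and 0.61 without WT replicate 1, and that of the IRG genes was 1.38 with all libraries and 1.08 without it; over all tested genes the median was -0.03 with all libraries. Without that library Gbp2 came nearest to 0, with a log2 difference of 0.12, Gbp7 came to 1.09, against 1.60 with it, and Iigp1 to 0.94, against 1.46 with it. Gbp9 came to 0.10 without Tet2 KO replicate 1. As each library was left out, Igtp ranged between 1.51 and 2.14, Irgm1 between 0.98 and 1.46, Irgm2 between 1.01 and 1.79, and Iigp1 between 0.94 and 1.94. Every member's log2 difference stayed above 0 in all 5 of these fits, and no member passed edgeR's adjusted threshold in any. Whether the families differed from each other was not tested.

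The count of members whose libraries did not overlap was 7 of 9 without WT replicate 1, against 21.5% of all tested genes in the same libraries, with Gbp2 and Gbp9 as the exceptions. Without the stroma-rich WT replicate 3 it was 8 of 9, against 24.7%, with Gbp9 as the exception. The GBP median was 1.41 and the IRG median 1.26 without WT replicate 3, against 1.06 and 1.38 with that library.

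**Figure D3:**
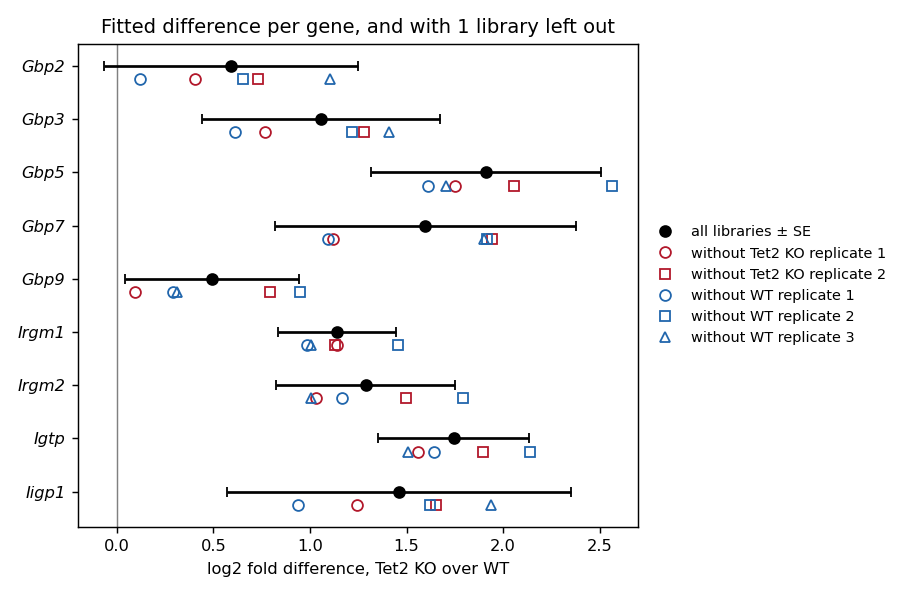
Fitted log2 fold difference, Tet2 KO over WT (x axis), of each member gene with all 5 RNA libraries (black, ± SE) and with 1 library left out (open symbols, red for a Tet2 KO and blue for a WT library). All points lie above 0, and Gbp2 without WT replicate 1 (0.12) and Gbp9 without Tet2 KO replicate 1 (0.10) lie nearest to it.

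Summed over genes, the GBP members reached 152 and 100.8 normalised CPM in Tet2 KO, against 26.7, 84.8 and 80.6 in WT, and the IRG members 268 and 229 in Tet2 KO, against 81.2, 146 and 73.4 in WT. Across the 5 libraries the widest-ranging share was that of Gbp9 among GBP counts (16.5% to 49.0%) and that of Irgm1 among IRG counts (45.5% to 60.5%). Gbp7 held 34.2% and 29.2% of GBP counts in Tet2 KO, against 10.8%, 22.1% and 23.1% in WT, and the 95% exact binomial intervals of the Tet2 KO libraries (32.4% to 36.1% and 27.4% to 30.9%) lay above those of WT, of which the highest ended at 24.3%. Gbp5 held 5.94% and 7.14% in Tet2 KO, against 4.36%, 4.36% and 1.93% in WT, but the interval of WT replicate 1, which rests on 17 counts, reached 6.89% and overlapped both Tet2 KO intervals.

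Gbp9 was the opposite case within WT. It held 20.8% and 19.1% of GBP counts in Tet2 KO, against 49.0%, 32.9% and 16.5% in WT, so that the WT libraries spread around the Tet2 KO libraries. Among IRG counts, Igtp held 25.1% and 22.7% in Tet2 KO, against 19.1%, 18.0% and 15.7% in WT, with intervals of 23.8% to 26.4% and 21.7% to 23.8% in Tet2 KO and none above 21.5% in WT. Irgm1 held the most IRG counts in every library, with 45.5% and 52.8% in Tet2 KO, against 54.1%, 52.6% and 60.5% in WT. These intervals cover counting error only, and the shares are not per length, so they compare a gene across libraries and not genes with each other.

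**Figure D4:**
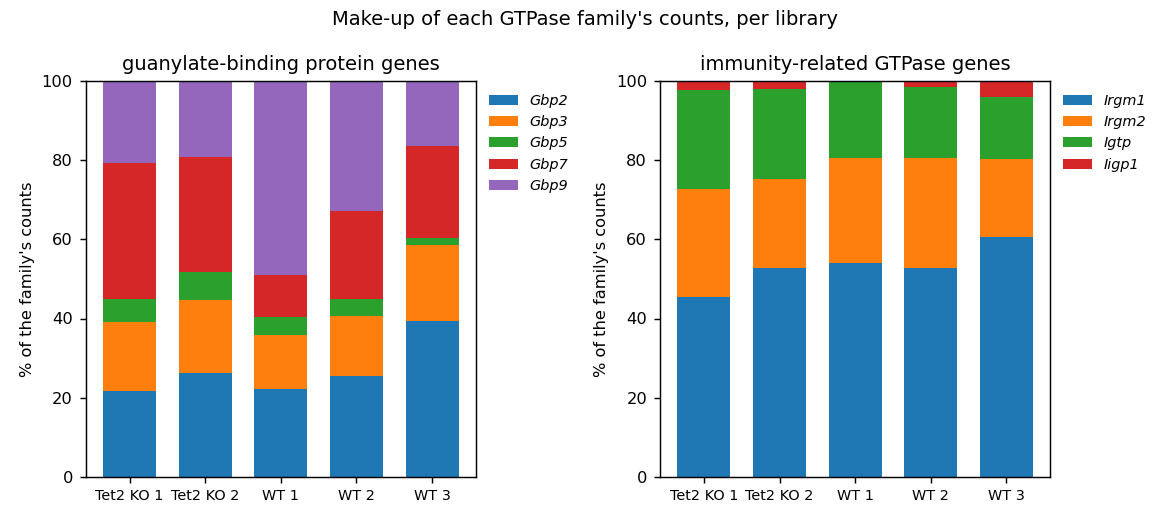
Share of each family's counts (y axis, percent, stacked) taken by each GBP gene (left) and IRG gene (right) in the 2 Tet2 KO libraries and the 3 WT libraries. Gbp7 takes 34.2% and 29.2% in Tet2 KO, against 10.8% to 23.1% in WT, and Gbp9 takes 49.0% in WT replicate 1.

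The other listed pathway genes, autophagy and inflammasome genes included, did not share one direction. Of 69 listed pathway genes 55 were tested, and 0 passed edgeR's adjusted threshold. Of these 55, 33 were fitted higher, against 48.4% of all tested genes, and 22 lower (median log2 0.21). DESeq2 called 6 higher and 3 lower, against 3.37% and 4.79% of all tested genes. Both Tet2 KO libraries lay above all WT libraries for 22 and below them for 11, against 17.2% and 19.0% of all tested genes. The autophagy list alone held 9 of the 22 fitted lower, 6 of the 11 below WT and all 3 called lower by DESeq2.

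The ligands were near or at 0. Interferon-gamma (Ifng), the listed interferon-alpha genes and the listed interferon-lambda genes had 0 counts in all 5 libraries, which allows up to 0.183 and 0.114 normalised CPM in Tet2 KO, against 0.205, 0.0551 and 0.0501 in WT. Interferon-beta (Ifnb1) had 6 and 0 counts in Tet2 KO, against 0, 1 and 1 counts in WT. It was too low to test, and any link to the members' levels was not tested.

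Of 4 receptor genes, 1 was fitted higher and 3 lower, and 0 were called by either tool. Ifngr1, the ligand-binding chain of the interferon-gamma receptor, had 58.5 and 72.9 normalised CPM in Tet2 KO, against 198, 139 and 76.7 in WT (log2 -1.07 ± 0.43, edgeR adjusted p = 0.365). Its libraries did not overlap, with Tet2 KO below, and WT replicate 1, the lowest for most GTPases, was the highest for this receptor. Ifnar2, a chain of the type I interferon receptor, lay likewise below, at 53.7 and 59.1 in Tet2 KO, against 108, 87.5 and 64.7 in WT.

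Signal transduction was mixed, with 7 of 11 genes fitted higher and 4 lower. Stat2, a transcription factor of the type I response, had 221 and 158 normalised CPM in Tet2 KO, against 43.2, 103 and 52.2 in WT (log2 1.52 ± 0.42). Irf7, which amplifies type I interferon production, had the largest fitted difference of these 11 genes, with 288 and 190 in Tet2 KO, against 6.91, 64.7 and 16.7 in WT (log2 3.02 ± 0.92, edgeR adjusted p = 0.269, DESeq2 adjusted p = 0.0166). In both genes WT replicate 1 was the lowest and replicate 2 the highest of the WT libraries.

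A pair of interferon regulatory factors lay on the other side. Irf1, which interferon-gamma induces and which drives GBP genes, had 44.8 and 47.7 normalised CPM in Tet2 KO, against 73.9, 65.0 and 86.3 in WT (log2 -0.70 ± 0.21, edgeR adjusted p = 0.268). Irf8, a macrophage lineage factor, had 122 and 111 in Tet2 KO, against 345, 171 and 153 in WT (log2 -0.94 ± 0.42, edgeR adjusted p = 0.399). In both genes the Tet2 KO libraries lay below all WT libraries, the opposite of Stat2 and the IRG genes.

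All 6 listed inhibitors were fitted higher, against 48.4% of all tested genes (median log2 1.02). The libraries of 4 did not overlap, against 17.2% of all tested genes, and DESeq2 called 1, against 3.37%. Usp18, which damps signalling at the type I interferon receptor, had 141.5 and 85.7 normalised CPM in Tet2 KO, against 2.26, 31.97 and 14.01 in WT (log2 2.81 ± 0.96, edgeR adjusted p = 0.305, DESeq2 adjusted p = 0.0449). Socs1, an inhibitor of JAK kinases, had 5.80 and 3.20 in Tet2 KO, against 0.547, 1.47 and 3.08 in WT, so that its groups were separated by a factor of only 1.04.

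Other GTPase genes of both families were in part too low to test. Of 6 further GBP genes 3 were tested: Gbp4, with 2.56 and 1.18 normalised CPM in Tet2 KO, against 0.205, 0.588 and 0.652 in WT, and Gbp6, with 1.95 and 1.67 in Tet2 KO, against 0, 0.184 and 0.385 in WT, lay above WT in both Tet2 KO libraries, while Gbp8 overlapped, at 0.672 and 0.419 in Tet2 KO, against 0.0684, 0.992 and 1.30 in WT. Of the other IRG and related GTPase genes 6 were tested and all 6 were fitted higher (median log2 1.25), 4 of them without overlap, against 17.2% of all tested genes. Gm12250, next to Igtp, had 17.3 and 17.4 in Tet2 KO, against 3.08, 14.2 and 2.99 in WT, and Ifi47, of the Irgm1 group, had 34.7 and 38.9 in Tet2 KO, against 8.34, 25.8 and 15.5 in WT. Tgtp1 and Tgtp2 are near-identical copies whose reads the counting may split, and Tgtp2 had 12.6 and 8.87 in Tet2 KO, against 0.205, 3.97 and 3.61 in WT. The GBP genes of chromosome 5 are likewise close relatives, so their levels, Gbp9 included, carry that uncertainty.

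Interferon-gamma targets outside the GTPases did not all lie on one side. Of 10 tested, Socs1 included, 7 were fitted higher and 3 lower, and 5 lay above WT without overlap, against 17.2% of all tested genes. Nos2, the inducible nitric oxide synthase, had the largest fitted difference and was the only DESeq2 call of the list, at 1.83 and 1.29 normalised CPM in Tet2 KO, against 0, 0.276 and 0.150 in WT (log2 3.25 ± 0.94, edgeR adjusted p = 0.256, DESeq2 adjusted p = 0.0312). Cxcl10, a chemokine, had 10.4 and 15.9 normalised CPM in Tet2 KO, against 0.342, 7.31 and 3.28 in WT, and Tap1, a peptide transporter for MHC class I, had 107 and 66.8 in Tet2 KO, against 47.2, 51.4 and 44.2 in WT. The class II transactivator Ciita overlapped, with 1.16 and 1.75 in Tet2 KO, against 10.7, 8.05 and 0.251 in WT, as did its target H2-Ab1, with 4.95 and 6.74 in Tet2 KO, against 52.7, 10.5 and 3.08 in WT. For both class II genes WT replicate 1 was the highest library, whereas it was the lowest for Cxcl10.

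Genes of the machinery that GTPases work with lay on both sides of WT. Of 6 inflammasome genes 4 were fitted higher and 2 lower. Casp4, a caspase that senses lipopolysaccharide in the cytosol, a step that GBPs promote, had 60.3 and 41.3 normalised CPM in Tet2 KO, against 16.3, 24.8 and 20.8 in WT (log2 1.30 ± 0.29, edgeR adjusted p = 0.206, DESeq2 adjusted p = 0.00635). Of 10 genes of the autophagy conjugation system, which guides IRG and GBP proteins onto vacuoles, 1 was fitted higher and 9 lower (median log2 -0.62), and 6 lay below WT in both Tet2 KO libraries, against 19.0% of all tested genes. Map1lc3a, a ubiquitin-like protein of this system, had 2.75 and 3.27 in Tet2 KO, against 21.7, 7.57 and 17.7 in WT (log2 -2.37 ± 0.55, edgeR adjusted p = 0.210, DESeq2 adjusted p = 0.00167). Gabarapl1, of the same family, had 33.0 and 43.2 in Tet2 KO, against 188, 76.8 and 81.7 in WT (log2 -1.60 ± 0.48, edgeR adjusted p = 0.268).

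**Figure D5:**
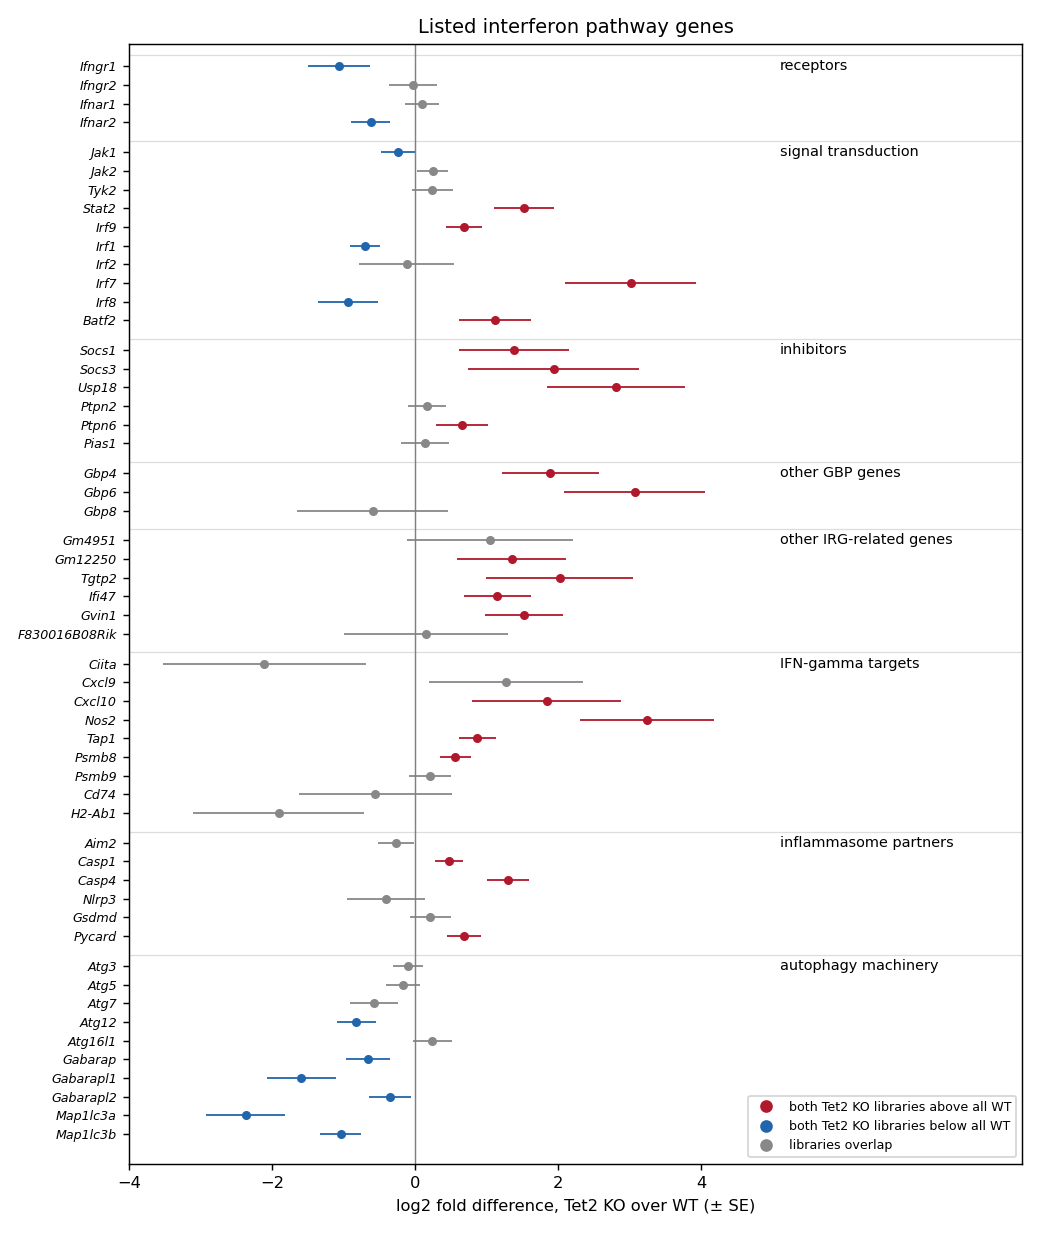
Log2 fold difference, Tet2 KO over WT, ± SE (x axis) of the tested interferon pathway genes reported here outside the members, grouped by role, with colour showing whether both Tet2 KO libraries lay above all WT libraries (red), below them (blue) or neither (grey). All 6 inhibitors lie above 0, and 9 of 10 autophagy genes lie below it.

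The genes most like each family's profile over the 5 libraries were named among 11087 candidates by the smallest root mean square distance between centred log2 levels. For the GBP mean these were Stat4 (0.088), Ube2e2 (0.11), Trpm2 (0.18), Pcdhgb5 (0.20), Slfn3 (0.20) and Wdr66 (0.20), against a median of 1.02 over all candidates. For the IRG mean they were Phf11b (0.059), Cdk14 (0.10), Col18a1 (0.11), Stat2 (0.11), Lca5 (0.12) and Trim30a (0.13), against a median of 0.99. Phf11b, the closest, had 24.4 and 21.9 normalised CPM in Tet2 KO, against 5.06, 13.0 and 7.44 in WT. The distances are descriptions over 5 libraries that differ in depth and in their share of other cell types.

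Markers of other cell types moved with the members in part, and their part in the GTPase levels was not tested. All 4 tested B cell markers were fitted higher, and the 5 listed summed to 24.2 and 11.5 normalised CPM in Tet2 KO, against 1.03, 2.72 and 0.351 in WT. The 6 dendritic cell markers summed to 19.8 and 8.38 in Tet2 KO, against 4.58, 4.47 and 1.99 in WT, of which Batf3 made 14.4 and 5.29 in Tet2 KO, against 2.60, 3.11 and 0.936 in WT. T cell and NK cell markers, which would mark the usual sources of interferon-gamma, were near 0: Cd3e and Cd8a had 0 counts in every library, and the 6 NK cell markers summed to 0.183 and 0.533 in Tet2 KO, against 0.342, 0.496 and 1.97 in WT. The T cell sum of 1.16 and 4.30 in Tet2 KO, against 37.4, 5.26 and 6.70 in WT, was nearly all Cd4. Granulocyte markers summed to 1.47 and 110.5 in Tet2 KO, against 100, 7.22 and 1.27 in WT, so that the library highest for all 9 members held few of them.

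The 5hmC files hold peak counts, so a member without a listed peak has no value. Totals were 46230 and 42489 peak counts in Tet2 KO, against 42678 and 219116 in WT, and the Tet2 KO libraries differed by less than counting noise alone would give (chi-square per degree of freedom 0.575) and were counted as 1 sample in tests. A listed peak lay in the body of 1 of the 9 member genes (11.1%), against 16.6% of 21900 protein-coding genes, and within 50 kb of 4 of the 9 (44.4%), against 44.8% of those genes. These 4 genes shared 2 peaks, neither of which had enough counts to be tested. Only 859 of the 9151 listed peaks (9.39%) were tested, and a peak could pass the filter on low counts through Tet2 KO alone.

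The peak inside Gbp5 (chr3:142499039-142499373), which is also the nearest to Gbp7, was called in WT. It had 2 and 2 counts in Tet2 KO, against 6 and 12 in WT, or 4.33 and 4.71 per 100000 peak counts in Tet2 KO, against 14.1 and 5.48 in WT. The other (chr11:58187875-58188160) lay inside Gm12250, 11.4 kb from Igtp and 26.8 kb from Irgm2, and was also called in WT. It had 1 and 2 counts in Tet2 KO, against 2 and 18 in WT, or 2.16 and 4.71 per 100000 in Tet2 KO, against 4.69 and 8.22 in WT. Both peaks were lower per 100000 in each Tet2 KO library than in WT, except that Tet2 KO replicate 2 and WT replicate 1 were level at the Gm12250 peak. Being called in WT favours lower Tet2 KO counts, so the direction is no support for a loss. With TMM scaling and a filter of at least 1 count in any library, the log2 differences were -0.15 at Gbp5 and -0.30 at Gm12250. At these counts no difference was detectable. No listed peak lay within 50 kb of Gbp2, Gbp3, Gbp9, Irgm1 or Iigp1.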

How the data were processed

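The deposited values are counts: per gene for total RNA depleted of ribosomal RNA, and per peak for DNA enriched for 5hmC, per the labels. Mouse build GRCm38 and the tools HTSeq, MACS2, STAR, BWA, Trim Galore and CASAVA 1.4 are named in the submitters' processing notes. The sources used here do not give what each tool did, the strand setting or the treatment of reads that match several genes. Groups and replicate numbers came from the sample titles. RNA counts were scaled by TMM, filtered with filterByExpr and tested with edgeR 4.0.16 (quasi-likelihood test, two-sided, no covariate, Benjamini-Hochberg adjustment over all 14851 tested genes, threshold 0.05), in R 4.3.3. DESeq2 1.42.0 and limma 3.58.1 (voom) were alternatives. The SE of a log2 difference was taken from the test's F value. Log2 levels used a prior count of 0.5, and the limit that a count of 0 allows is 3 counts per library. Peak counts were tested the same way, with both Tet2 KO libraries entered as the rounded mean of their counts (chi-square per degree of freedom 0.575). In simulated counts of the same group sizes (14520 genes, with the same spread for every gene), edgeR recovered 74% of genes changed 8-fold and 90% of those changed 32-fold. The simulated 8-fold changes were all increases in Tet2 KO and the 32-fold changes all decreases.

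All 9 members are named. Listed pathway genes may be named, as may, for each family, the 6 tested genes nearest to its mean profile among genes of at least 1 CPM. Pseudogenes, predicted genes and clone names were not considered for these. Members and lists were chosen with earlier results of these data known. RefSeq gene positions and promoter sequences are of the same build, and motifs were searched by their letters on both strands. Exon lengths were not used here, so levels are not compared between genes. One listed pathway gene counts in the totals but is not reported here.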

Additional observations from a re-analysis of the deposited data

How the results depend on the processing

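The number of genes past the adjusted threshold over the whole table depended on the tool: edgeR called 2, DESeq2 1211, limma-voom 1, and edgeR with total-count scaling 0. Leaving out 1 library gave 0 to 0 genes. No member was called by edgeR or limma-voom under any alternative run, and DESeq2 called Gbp5, Irgm1 and Igtp. The cause was not tested. All 9 members were fitted higher in every alternative. The GBP median ranged over 0.61 to 1.41 and the IRG median over 1.08 to 1.71 as each library was left out, and the median of all pathway genes over 0.13 to 0.28. Same-numbered libraries did not deviate together (r = -0.000296 for replicate 1 and -0.109 for replicate 2), so the numbers are not taken to pair the samples. With the replicate block over the 2 shared numbers, which leaves out WT replicate 3, 0 genes were called, the GBP median was 1.65 and the IRG median 1.30. In that fit Gbp8 was at a log2 difference of 0.35, against -0.60 without the block, and passed the threshold in neither. Testing genes with no filter on low counts moved the median of all genes to -0.16, where the GBP median was 1.003 and the IRG median 1.34. For 5hmC, 0 tested peaks lay within 50 kb of a member with the usual filter. With a filter of at least 1 count in any library, both nearby peaks were tested and 0 were called (log2 -0.15 at Gbp5, adjusted p = 0.964, and -0.30 at Gm12250, adjusted p = 0.922). Alternatives chosen after seeing the data gave 1 called peak within 200 kb and 1 called peak within 50 kb of other listed GTPase genes, the same peak in both. Over all 859 tested peaks, 17.9% were called higher in Tet2 KO and 1.75% lower. Values resting on few counts are the least precise, such as the 4 counts of Iigp1 and the 17 of Gbp5 in WT replicate 1. That library had more total counts than Tet2 KO replicate 1 (17569441 against 16053426). Its TMM-scaled size was smaller (14622900 against 16377600).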

Other observations

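Near the Irgm1 group of genes, 1 listed 5hmC peak had more counts in both Tet2 KO libraries than in both WT libraries. It was chosen after its values were seen, when the window around the members was widened to 200 kb. The peak (chr11:48996799-48997164) lies 125 kb from Irgm1 and 4.55 kb from Tgtp1, a GTPase gene of the IRG family. It had 20 and 15 counts in Tet2 KO, against 0 and 1 in WT, and the edgeR adjusted p over 859 tested peaks was 1.97e-06 in a fit that enters the Tet2 KO libraries as 1 sample, so that this lone sample is assumed to vary like the WT libraries. With the Tet2 KO libraries as 2 samples it was 0.000141. With scaling by total peak counts the adjusted p was 0.072, no longer past the threshold, and over the other alternatives it ranged between 2.74e-14 and 0.00486. In the main fit, 154 of the 859 tested peaks (17.9%) were called higher in Tet2 KO and 15 (1.75%) lower. The peak near Tgtp1 was called in Tet2 KO libraries, a choice that favours higher Tet2 KO counts. With 0 and 1 counts in WT, it also passed the main fit's filter on low counts through its Tet2 KO counts alone. The adjusted p values therefore describe this peak and are no independent support for a difference. A neighbouring peak (chr11:48997435-48997652) had 11 and 3 counts in Tet2 KO, against 0 and 0 in WT, and was not tested in the main analysis. In RNA, Tgtp1 had 2 and 74 counts in Tet2 KO, against 0, 4 and 11 in WT, with its near-identical copy Tgtp2 nearby.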
